A study of Drosophila melanogaster with 12 samples.

Results

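The genes described here are the aminoacyl-tRNA synthetases and translation initiation factors of Drosophila melanogaster, taken by name from the expression tables of larval carcass, the body wall of muscle and epidermis left after the gut is dissected out. A row was included where one of its gene names began with Aats- or with eIF, which gave 21 synthetase rows and 28 initiation factor rows, 49 of 13650 in each table. The 12 libraries formed 4 groups of 3, all of late foraging third-instar larvae. The smox group carried the mutant allele of Smox, the Smad protein of Activin signaling, written Smox(Smad2)F4/Y, so its larvae were male by genotype and had 1 X chromosome. It was set against w1118, which served as wild type; the labels do not name the sex of those larvae. Both ate yeast paste on apple-juice plates and were not treated. The baboACT group, tub-Gal80ts/+;MhcGal4/baboACT, expressed an activated form of the Activin receptor Baboon under the muscle driver MhcGal4. It was set against MhcGal4 larvae, tub-Gal80ts/+;MhcGal4/+, which lacked the activated receptor. Both of these groups were raised on standard vial food, carried temperature-sensitive Gal80, which holds Gal4 inactive until the temperature is raised, and were kept at 30 °C for 12 h before RNA was taken.

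Aminoacyl-tRNA synthetases join each amino acid to its tRNA, and animal cells have separate sets of these enzymes, in part from separate genes, for the cytosol and for mitochondria. Initiation factors bring the initiator tRNA, the mRNA cap and the small ribosomal subunit together at the start codon. Among them eIF2 carries the initiator tRNA, eIF2B recharges eIF2 with GTP, eIF3 is the large scaffold on the small subunit, and eIF4E, eIF4G and eIF4A bind the cap and unwind the mRNA. The pathway is a main point at which insulin, TOR and stress signaling set the rate of protein synthesis in growing tissue.

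Each table holds 1 FPKM per gene and group (fragments scaled by transcript length and by the size of the library), so no value has a spread between libraries, and the read depth is unknown. A gene is said to have risen, fallen or been called at a q under 0.05 by the authors' deposited table. Whether the 3 libraries of a group were made from different animals is not stated, so q may in part measure technical spread. Fold changes are log2 ratios of the deposited FPKM, smox over w1118 and baboACT over MhcGal4. A gene counts as measured if it has a row to itself, was tested by the authors, is above 0 in each of the 2 groups and averages at least 1 FPKM over them. By that rule all 21 synthetases were measured in both experiments, and of the 28 initiation factor rows 23 were measured in smox and 22 in baboACT. The tables were made separately and the experiments differ in food, temperature and background, so levels are compared only within one. The targeted gene Smox stood at 1.40 FPKM in smox and 23.9 FPKM in w1118, and babo, whose listed level may or may not include the activated form, at 15.6 FPKM in baboACT and 13.2 FPKM in MhcGal4.

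Markers of other cell types differed between the groups. Of 12 muscle markers, Act57B is listed at 0 in all 4 groups, Mhc at 0 in smox and MhcGal4, and Mlc2 at 0 in MhcGal4, and an exact 0 in such tables can be a failed estimate. The 10 measured in smox summed to 43629 FPKM in smox and 43355 FPKM in w1118 (4 rose and 1 fell), and the 9 measured with activated Baboon to 33432 FPKM in baboACT and 44013 FPKM in MhcGal4 (7 fell). The 10 epidermal markers summed to 77320 FPKM in smox and 60261 FPKM in w1118 and to 64322 FPKM in baboACT and 46047 FPKM in MhcGal4, of which Lcp2 alone gave 60297 FPKM in smox and 34779 FPKM in w1118. Of the 8 measured, 4 rose and 4 fell in smox (median log2 fold change -0.11), and 3 rose and 0 fell with activated Baboon. Lcp4 is at 0 in all 4 groups, Lcp1 in smox and w1118, and Lcp3 in baboACT and MhcGal4. The 9 fat body markers found summed to 1952 FPKM in smox and 952 FPKM in w1118, and to 771 FPKM in baboACT and 1443 FPKM in MhcGal4. Of the 7 measured, 5 rose and 2 fell in smox, and 1 rose and 4 fell with activated Baboon. Fad2 is at 0 in w1118, baboACT and MhcGal4 and Ugt35b in baboACT. The 7 salivary gland markers, none at 0, summed to 32.1 FPKM in smox and 502 FPKM in w1118, and to 2207 FPKM in baboACT and 56.4 FPKM in MhcGal4. All 6 measured in smox fell and all 7 measured with activated Baboon rose. The 8 midgut markers found summed to 52.3 FPKM in smox and 432 FPKM in w1118, and to 122 FPKM in baboACT and 378 FPKM in MhcGal4. Of the 5 measured, 4 fell in smox and 2 with activated Baboon. Jon99Cii and Amy-p are at 0 in all 4 groups and Jon99Ci in smox and w1118. The 5 hemocyte markers found summed to 127 FPKM in smox and 132 FPKM in w1118, and to 76.5 FPKM in baboACT and 103 FPKM in MhcGal4, with 2 higher and 3 lower in smox and 3 lower with activated Baboon. The part of these cells in the differences below was not tested, and in bulk carcass RNA fewer cells of a type and less RNA per cell cannot be told apart.

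The 2 classes differed in median abundance in all 4 groups, although their ranges overlapped. In w1118 the eIF2B genes lay between 9.37 FPKM and 27.5 FPKM, within the synthetase range of 3.07 FPKM to 72.5 FPKM. Synthetase transcripts had a median of 23.5 FPKM in smox and 20.0 FPKM in w1118, and of 29.4 FPKM in baboACT and 28.2 FPKM in MhcGal4. Measured initiation factors had a median of 99.1 FPKM in smox and 92.1 FPKM in w1118, and of 110 FPKM in baboACT and 90.5 FPKM in MhcGal4. Since FPKM is scaled by length, the levels of different genes can be set side by side. The initiation factor class was led by eIF-4a, the RNA helicase of the cap complex, and eIF-5A, whose current RefSeq symbol is eEF5 because the protein also acts in elongation. Both were far above every other member of their class, the next of which was eIF-1A.

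**Figure D1:**
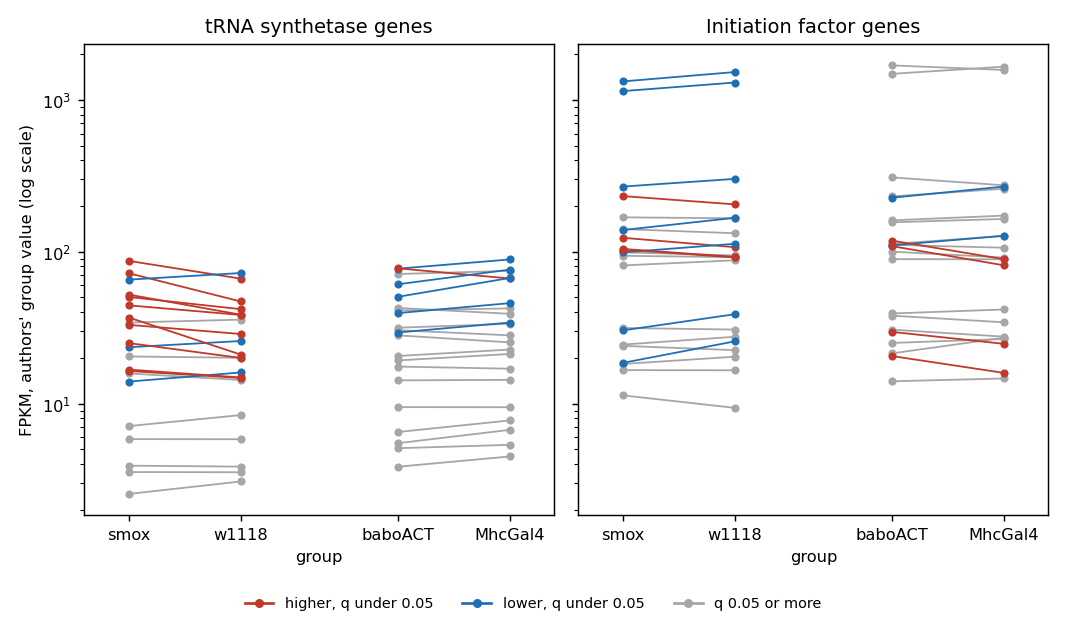
FPKM (log scale) of the 21 synthetase genes and of the 22 initiation factor genes measured in both experiments, with 1 value per group and no error bars because no library values were used; lines join smox to w1118 and baboACT to MhcGal4, red where the gene was higher and blue where it was lower at q under 0.05. No synthetase exceeds 88.9 FPKM, while eIF-5A and eIF-4a stand at 1144 FPKM or more in each group.

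Of the synthetases, 6 are encoded by genes whose current RefSeq symbols mark them as mitochondrial, although only Aats-ala-m says so in the tables: Aats-ala-m, Aats-leu, Aats-met, Aats-phe, Aats-pro and Aats-ser. The other 15 are called cytosolic here, and some of them may serve both compartments. In w1118 the 6 mitochondrial genes ranged between 3.07 FPKM and 16.0 FPKM and the 15 cytosolic genes between 14.3 FPKM and 72.5 FPKM. Aats-phe was therefore the one mitochondrial gene as abundant as the lowest cytosolic ones. In MhcGal4 the same split ran between 4.48 FPKM and 21.2 FPKM for mitochondrial genes and between 14.3 FPKM and 88.9 FPKM for cytosolic genes.

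In smox carcasses, transcripts of cytosolic tRNA synthetases were mostly higher than in w1118, while most genes that changed in these larvae fell. Of the 21 synthetases 10 rose and 3 fell, which is 47.6% and 14.3%, beside 18.4% higher and 39.9% lower among all 7719 measured genes. Among genes of at least 5 FPKM the shares over all genes were 19.5% higher and 43.5% lower. All 10 that rose are cytosolic, with log2 fold changes between 0.15 for Aats-cys and 0.81 for Aats-glupro. Over the whole class, with fallen and uncalled genes, the median log2 fold change was 0.14, against -0.14 over all measured genes. Relative to that median gene the class stood at 0.29.

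The leading rise was in Aats-glupro, which encodes the bifunctional enzyme that charges both glutamate and proline tRNAs. This gene, on 3R from 19777852 to 19784117 as the tables place it (their build is not named), had 36.9 FPKM in smox and 21.0 FPKM in w1118, a log2 fold change of 0.81 (q = 0.000152 by the authors' deposited table, the lowest q there). Its fold change ranked at position 503 from the top of 7719 genes. Aats-asn, the asparaginyl enzyme on 2L from 19129862 to 19131960, had 72.2 FPKM in smox and 47.0 FPKM in w1118, a log2 fold change of 0.62. Aats-tyr, the most abundant synthetase transcript in w1118 at 72.5 FPKM, fell to 65.5 FPKM in smox and there stood below Aats-asn. In smox the most abundant was Aats-asp, at 87.1 FPKM.

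Lysyl, aspartyl, isoleucyl and threonyl enzymes followed. Aats-lys, on the X chromosome from 9500396 to 9502917, had 52.2 FPKM in smox and 38.5 FPKM in w1118, a log2 fold change of 0.44. Aats-asp had 87.1 FPKM in smox and 66.5 FPKM in w1118 (0.39). These 4 leading genes and Aats-ile were at least 25% higher in smox. Aats-ile had 25.0 FPKM in smox and 20.0 FPKM in w1118 (log2 fold change 0.33), and Aats-thr had 50.3 FPKM in smox and 41.9 FPKM in w1118 (0.27). The remaining rises were smaller, with log2 fold changes of 0.21 in Aats-ala, 0.20 in Aats-gly, 0.17 in Aats-val and 0.15 in Aats-cys, the last with q = 0.0399 by the authors' deposited table.

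**Figure D2:**
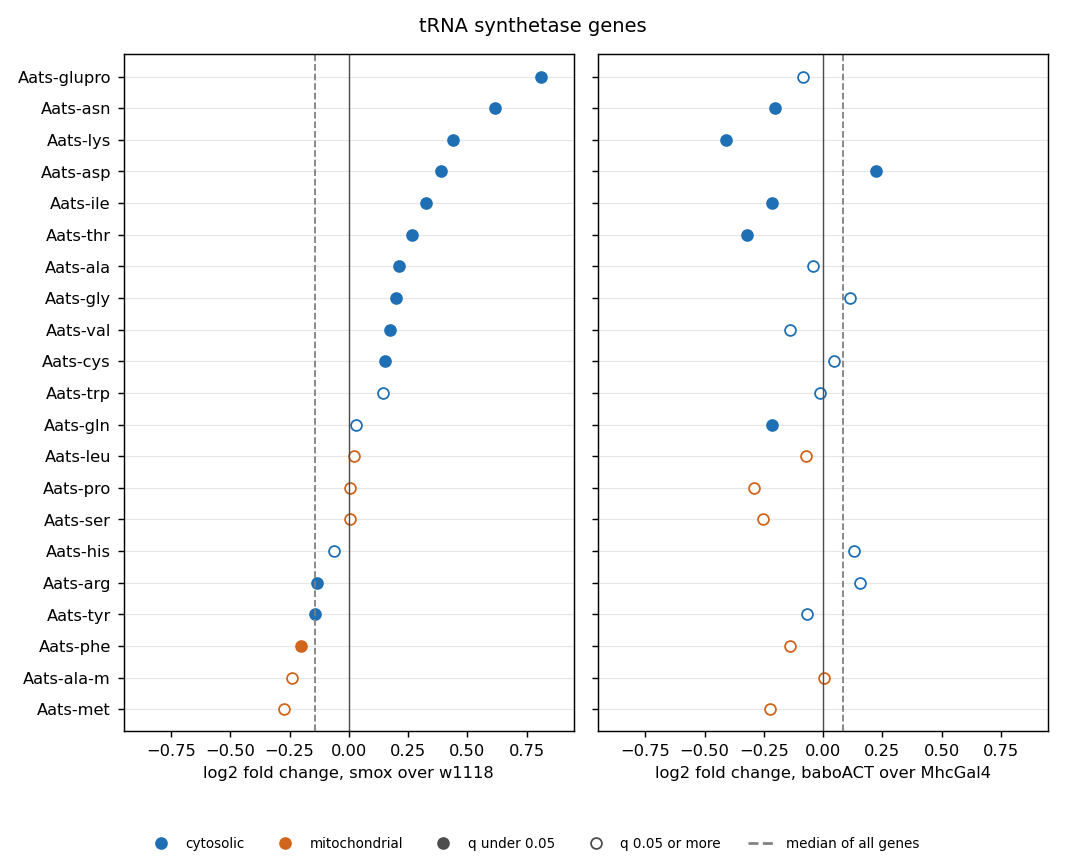
Log2 fold changes of the 21 synthetase genes, smox over w1118 on the left and baboACT over MhcGal4 on the right, ordered by the smox value; filled points had q under 0.05, blue marks cytosolic and orange mitochondrial enzymes, and the dashed line is the median of all measured genes. The 10 filled points right of 0 in smox are all cytosolic and begin with Aats-glupro at 0.81; with activated Baboon only Aats-asp has a filled point right of 0.

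The synthetases that fell in smox changed little. Aats-phe had 14.0 FPKM in smox and 16.0 FPKM in w1118, a log2 fold change of -0.20. Aats-tyr had 65.5 FPKM in smox and 72.5 FPKM in w1118 (-0.14), and Aats-arg had 23.5 FPKM in smox and 25.8 FPKM in w1118 (-0.14). Set against the median gene, Aats-tyr lay at -0.0014 and Aats-arg changed its sign, to 0.0074, so both falls were close in size to the shift of the whole table. Aats-phe stood at -0.06 on that scale and at -0.08 after quantile normalization. Aats-phe and Aats-tyr had q = 0.0235 and q = 0.0466 by the authors' deposited table, and Aats-arg had q = 0.0125 there.

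Among the 6 mitochondrial synthetases 0 rose and 1 (Aats-phe) fell in smox, and their median log2 fold change was -0.10, beside 0.20 for the 15 cytosolic genes, of which 10 rose and 2 fell. The part of the lower abundance of the mitochondrial genes in these calls was not tested. With the median gene set to 0 the mitochondrial median changed sign, to 0.05, and the cytosolic median was 0.34; the difference between the compartments was not tested. The compartments were set from current symbols after values were seen; by the names in the tables, which leave Aats-ala-m as the 1 mitochondrial gene, the medians were -0.24 for mitochondrial and 0.15 for cytosolic genes. Aats-met had 2.54 FPKM in smox and 3.07 FPKM in w1118 and Aats-ala-m had 7.11 FPKM in smox and 8.40 FPKM in w1118, without being called. Aats-leu stood at 3.90 FPKM in smox and 3.85 FPKM in w1118, Aats-pro at 3.54 FPKM in smox and 3.53 FPKM in w1118, and Aats-ser at 5.84 FPKM in smox and 5.82 FPKM in w1118.

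Among cytosolic enzymes the structural classes of synthetases could be compared by count. Class II enzymes, which share one type of catalytic fold, rose in 6 of 7 cases, with only Aats-his at 34.2 FPKM in smox and 35.7 FPKM in w1118 not called. Class I enzymes rose in 4 of 8 cases (Aats-glupro, Aats-ile, Aats-val and Aats-cys) and fell in 2. The shares were 85.7% higher and 0% lower in class II, and 50% higher and 25% lower in class I. Among all measured genes they were 18.4% and 39.9%, and the difference between the structural classes was not tested. Aats-glupro carries a domain of each class and is counted under class I. Aats-trp, at 15.8 FPKM in smox and 14.3 FPKM in w1118 (q = 0.0669 by the authors' deposited table), and Aats-gln, at 20.5 FPKM in smox and 20.0 FPKM in w1118, were the genes of those 8 without a call. Summed over the cytosolic set, synthetase transcripts came to 594 FPKM in smox and 500.0 FPKM in w1118. Cytosolic enzymes under other names, described further on, are outside these counts. Of them LeuRS (class I) and SerRS (class II) rose in smox. MetRS (class I) and both subunits of the phenylalanyl enzyme (class II) were not called.

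Because smox larvae had 1 X chromosome and the sex of w1118 is not given, the X-linked members were read apart. Of the 3 X-linked synthetases Aats-lys rose, Aats-arg fell and Aats-his was not called, and without them 9 of 18 synthetases rose and 2 fell. None of the 4 measured initiation factors on the X was called in smox. Over all 1277 measured X-linked genes 16.3% rose and 40.3% fell, beside 18.4% and 39.9% of all measured genes. Their median log2 fold change was -0.15, beside -0.14 for all measured genes. The male-specific RNA roX1, read after the values were known, stood at 103 FPKM in smox and 63.9 FPKM in w1118. Sex and genotype cannot be told apart in this comparison.

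Initiation factor genes moved in both directions in smox. The median size of their called changes was 1.14-fold, close to the 1.16-fold of the called synthetases. Of 23 measured genes 4 rose and 7 fell, 17.4% and 30.4%, shares near those of all measured genes given above. The class median log2 fold change was 0.02, and 0.01 without eIF4E-3, which passed the level minimum only through its value in smox and is described with its paralogs below.

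The 4 rises in smox were in 3 of the 5 measured eIF3 genes named eIF in the tables and in 1 of 2 eIF2 genes, while 3 eIF3 subunit genes under other names, described further on, fell. Of the 5, eIF-3p66 had 124 FPKM in smox and 107 FPKM in w1118, a log2 fold change of 0.21. The core scaffold genes eIF3-S9 (233 FPKM in smox and 205 FPKM in w1118) and eIF3-S10 (103 FPKM in smox and 91.8 FPKM in w1118) had log2 fold changes of 0.18 and 0.17. eIF3-S8 and eIF-3p40 were not called, at log2 fold changes of 0.09 and 0.02. eIF-2beta, a subunit of the initiator tRNA carrier, had 104 FPKM in smox and 92.4 FPKM in w1118 (0.18, q = 0.0338 by the authors' deposited table). Relative to the median gene these 4 rises lay between 0.32 and 0.35. Its partner eIF-2alpha, the subunit whose phosphorylation by stress kinases slows initiation, stood at 99.1 FPKM in smox and 94.6 FPKM in w1118 and was not called (q = 0.387 by the authors' deposited table).

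The largest fall among called initiation factors in smox was in eIF2B-gamma, one of the catalytic subunits of the eIF2 recharging factor. It lies on 2R from 11430175 to 11437485 and had 18.6 FPKM in smox and 25.7 FPKM in w1118, a log2 fold change of -0.47. The other 4 subunits of eIF2B were not called. eIF2B-epsilon, its catalytic partner, stood at 11.3 FPKM in smox and 9.37 FPKM in w1118 (0.27, q = 0.130 by the authors' deposited table), so the values of the 2 catalytic subunits lay on opposite sides of 0. eIF2B-alpha, eIF2B-beta and eIF2B-delta had log2 fold changes of -0.17, 0.09 and 0.0035.

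Cap-complex and helicase genes made up most of the other falls in smox. eIF4AIII, the helicase of the exon junction complex rather than of initiation, had 30.4 FPKM in smox and 38.8 FPKM in w1118, a log2 fold change of -0.35. eIF-4E, which encodes the main cap-binding protein, had 139 FPKM in smox and 167 FPKM in w1118 (-0.27). eIF-5A had 1324 FPKM in smox and 1527 FPKM in w1118 (-0.21), and eIF-4a had 1144 FPKM in smox and 1302 FPKM in w1118 (-0.19). These were the 2 most abundant members, and the summed FPKM of the measured class was 4301 in smox and 4672 in w1118. eIF-4B, a cofactor of the helicase, had 99.1 FPKM in smox and 113 FPKM in w1118 (-0.19). eIF-1A, which acts in start codon selection, had 269 FPKM in smox and 302 FPKM in w1118 (-0.17). Relative to the median gene these 6 falls ranged between -0.21 for eIF4AIII and -0.02 for eIF-1A.

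**Figure D3:**
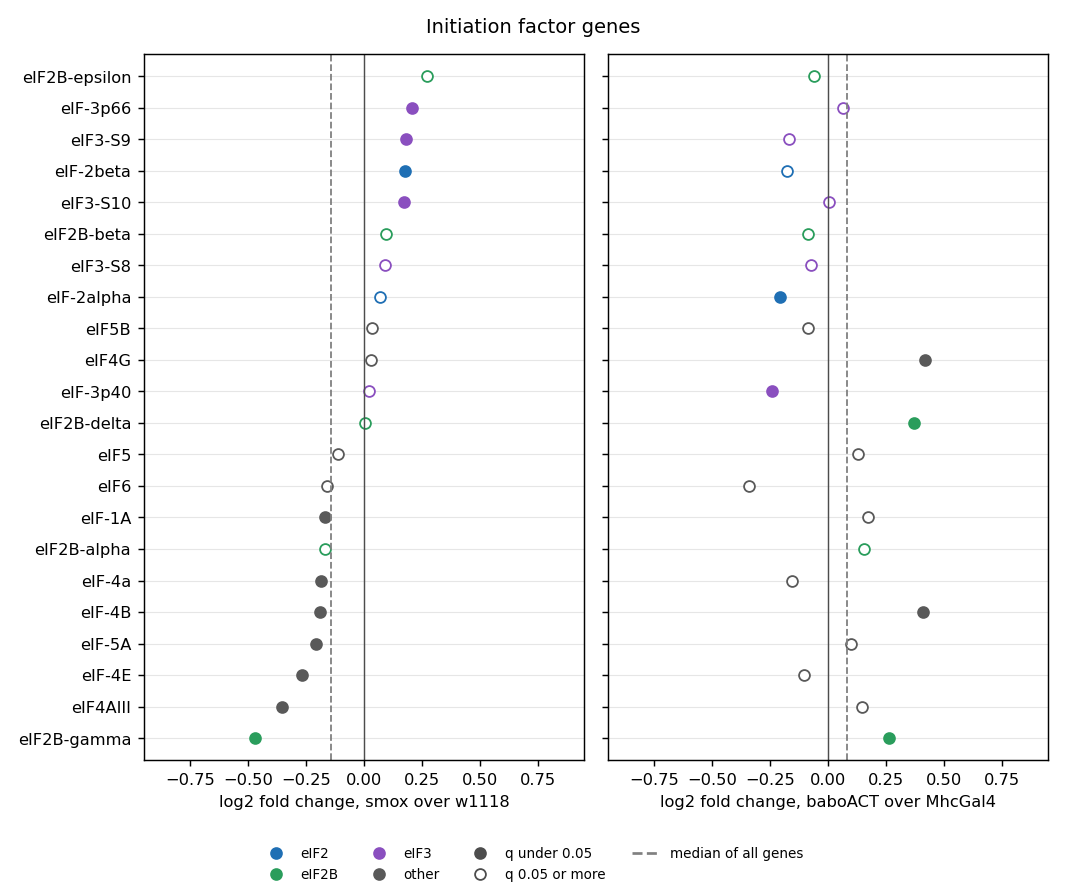
Log2 fold changes of 22 initiation factor genes, smox over w1118 on the left and baboACT over MhcGal4 on the right, ordered by the smox value; filled points had q under 0.05, colors mark the eIF2, eIF2B and eIF3 subunits, and the dashed line is the median of all measured genes. eIF4E-3 is left out because its low values give a log2 fold change of 6.36 in smox without a call; eIF2B-gamma is lowest in smox at -0.47 and eIF4G highest with activated Baboon at 0.42.

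Factors acting around subunit joining and the cap scaffold were not called in smox. eIF5, which triggers GTP hydrolysis by eIF2, stood at 81.3 FPKM in smox and 87.9 FPKM in w1118. eIF5B, which joins the ribosomal subunits, stood at 31.5 FPKM in smox and 30.7 FPKM in w1118. eIF6, which keeps the large subunit apart until it is mature, stood at 18.2 FPKM in smox and 20.4 FPKM in w1118. eIF4G, the scaffold of the cap complex, stood at 94.1 FPKM in smox and 92.1 FPKM in w1118 (q = 0.687 by the authors' deposited table). Among the measured members of both classes, 1 had a log2 fold change of 1 or more in size in smox, the uncalled eIF4E-3, beside 10.1% of all measured genes.

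With activated Baboon in muscle, most synthetase transcripts that were called fell, although most genes that changed in these carcasses rose. Of 21 synthetases 1 rose and 5 fell, 4.76% and 23.8%, beside 29.2% higher and 14.7% lower among all 7754 measured genes. Among genes of at least 5 FPKM those background shares were 33.0% higher and 15.3% lower. The median log2 fold change of the class was -0.09, beside 0.08 over all measured genes. All 6 called genes are cytosolic.

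Aats-lys fell the most with activated Baboon, to 50.5 FPKM in baboACT against 67.2 FPKM in MhcGal4, a log2 fold change of -0.41 (q = 0.000217 by the authors' deposited table, the lowest q there). Aats-thr had 61.0 FPKM in baboACT and 76.3 FPKM in MhcGal4 (-0.32). Aats-gln had 29.4 FPKM in baboACT and 34.2 FPKM in MhcGal4, and Aats-ile had 39.4 FPKM in baboACT and 45.9 FPKM in MhcGal4, each with a log2 fold change of -0.22. Aats-asn, the most abundant synthetase transcript in MhcGal4, had 77.3 FPKM in baboACT and 88.9 FPKM in MhcGal4 (-0.20, q = 0.0399 by the authors' deposited table). The one rise was in Aats-asp, with 77.8 FPKM in baboACT and 66.7 FPKM in MhcGal4 (0.22, q = 0.0185 by the authors' deposited table). That log2 fold change was 0.14 with the median gene set to 0 and 0.0082 after quantile normalization, which made each of the 5 falls larger, between -0.40 for Aats-asn and -0.63 for Aats-lys. Of the called genes, Aats-lys was the one for which either group stood at least 25% above the other.

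No mitochondrial synthetase was called with activated Baboon. Their median log2 fold change was -0.18, and 5 of the 6 had values below 0. The most negative was Aats-pro, at 5.48 FPKM in baboACT and 6.71 FPKM in MhcGal4 (q = 0.124 by the authors' deposited table). Aats-glupro, which led the rises in smox, stood at 31.6 FPKM in baboACT and 33.5 FPKM in MhcGal4 and was not called (q = 0.494 by the authors' deposited table). The 9 cytosolic genes without a call had log2 fold changes between -0.14 for Aats-val and 0.15 for Aats-arg.

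Initiation factors gave 4 rises and 2 falls among 22 genes measured with activated Baboon, 18.2% and 9.09%, both below the shares of all measured genes. Their median log2 fold change was -0.03. It turned to 0.0039 when the row CG33111,eIF4G2 was added, so no direction is read from it. The 4 rises were in the eIF4G scaffold, the helicase cofactor eIF-4B and a pair of eIF2B subunits.

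eIF4G, on chromosome 4 from 935911 to 951347, had 109 FPKM in baboACT and 81.5 FPKM in MhcGal4, a log2 fold change of 0.42 (q = 0.000217 by the authors' deposited table). eIF-4B had 118 FPKM in baboACT and 89.4 FPKM in MhcGal4 (0.41). eIF2B-delta had 20.6 FPKM in baboACT and 15.9 FPKM in MhcGal4 (0.37), and eIF2B-gamma had 29.7 FPKM in baboACT and 24.8 FPKM in MhcGal4 (0.26). After quantile normalization these 4 log2 fold changes were smaller, at 0.21 for eIF4G, 0.23 for eIF-4B, 0.22 for eIF2B-delta and 0.07 for eIF2B-gamma. A regulatory and a catalytic subunit of eIF2B thus rose, while eIF2B-alpha (0.15), eIF2B-beta (-0.09) and eIF2B-epsilon (-0.06) were not called.

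The 2 falls with activated Baboon were in eIF-3p40 and eIF-2alpha. eIF-3p40, an eIF3 subunit, had 227 FPKM in baboACT and 269 FPKM in MhcGal4, a log2 fold change of -0.24 (q = 0.0118 by the authors' deposited table). eIF-2alpha had 110 FPKM in baboACT and 127 FPKM in MhcGal4 (-0.21, q = 0.0324 by the authors' deposited table). eIF6 had the most negative value of the class, at 21.4 FPKM in baboACT and 27.2 FPKM in MhcGal4 (-0.34), and was not called (q = 0.123 by the authors' deposited table). The abundant genes eIF-4a (1486 FPKM in baboACT and 1656 FPKM in MhcGal4) and eIF-5A (1688 FPKM in baboACT and 1576 FPKM in MhcGal4) were not called either, nor was eIF-4E, at 161 FPKM in baboACT and 173 FPKM in MhcGal4. No measured member of either class had a log2 fold change of 1 or more in size with activated Baboon, beside 7.12% of all measured genes.

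**Figure D4:**
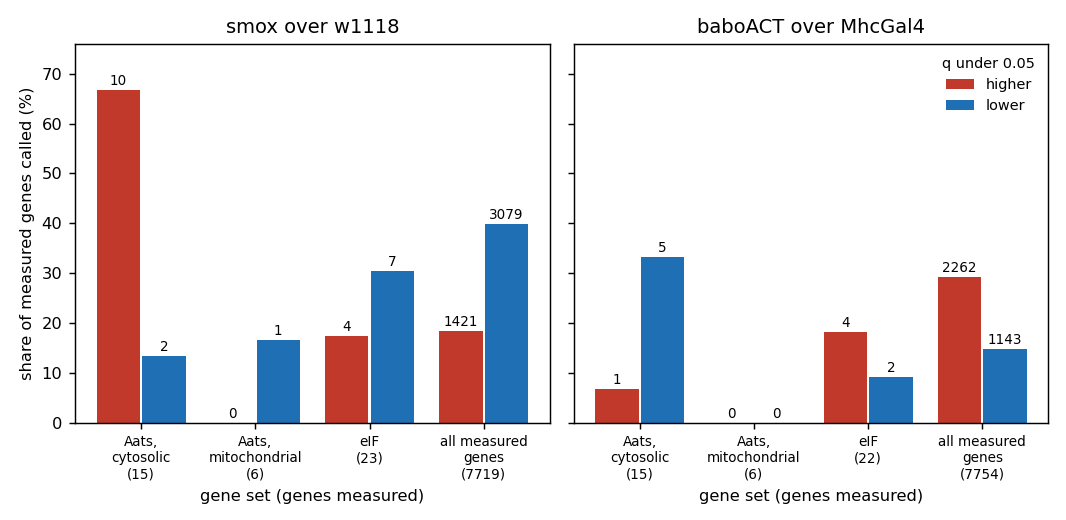
Share of measured genes called higher (red) or lower (blue) at q under 0.05, for cytosolic and mitochondrial synthetases, initiation factors and all measured genes, smox over w1118 on the left and baboACT over MhcGal4 on the right; the number on each bar counts the genes called. Cytosolic synthetases have 10 genes higher and 2 lower of 15 in smox, and 1 higher and 5 lower with activated Baboon, while all measured genes lean to lower in smox and to higher with activated Baboon.

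The experiments share no samples, and the calls of each gene in both can be set side by side. Aats-asn, Aats-ile, Aats-lys and Aats-thr were higher in smox and lower with activated Baboon, 4 of 21 synthetases, where 5.55% of the 7512 genes measured in both experiments did so. No synthetase was lower in smox and higher with activated Baboon, the more common pattern among all genes at 19.4%. Aats-asp was higher in both experiments, as were 3.41% of all genes. In neither experiment were 7 synthetases called, 5 of them mitochondrial: Aats-ala-m, Aats-leu, Aats-met, Aats-pro, Aats-ser, Aats-his and Aats-trp. The share of all genes called in neither was not computed, so no weight is given to that count. Taken singly, 8 of 21 synthetases were not called in smox, beside 3219 of 7719 measured genes. With activated Baboon 15 of 21 were not called, beside 4349 of 7754 measured genes. Whether the effects on a gene differ between the experiments was not tested.

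Among initiation factors eIF2B-gamma and eIF-4B were lower in smox and higher with activated Baboon, 2 of 22 genes or 9.09%, beside the 19.4% of all genes with that pattern. No initiation factor was called higher in smox and lower with activated Baboon. No member of either class was lower in both, beside 2.97% of all genes. Of the marker lists, fat body differed in its sum in the same directions as those 4 synthetases. Its 7 measured markers were not uniform: 5 rose and 2 fell in smox, and 1 rose and 4 fell with activated Baboon. Fbp1 went against the sum in both experiments, with log2 fold changes of -1.10 in smox and 1.47 with activated Baboon. Muscle, the tissue in which Baboon was driven, had nearly equal measured sums in the smox comparison. They were 43629 FPKM in smox and 43355 FPKM in w1118, a log2 ratio of 0.009 (4 of 10 rose and 1 fell). In the other experiment they were 33432 FPKM in baboACT and 44013 FPKM in MhcGal4 (7 of 9 fell). Over all 12 muscle markers, with those listed at 0, the order was reversed in both experiments. Those sums were 43629 FPKM in smox and 46247 FPKM in w1118, and 47515 FPKM in baboACT and 44013 FPKM in MhcGal4. The sum over salivary gland markers differed in the opposite directions; their part in these values was not tested.

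**Figure D5:**
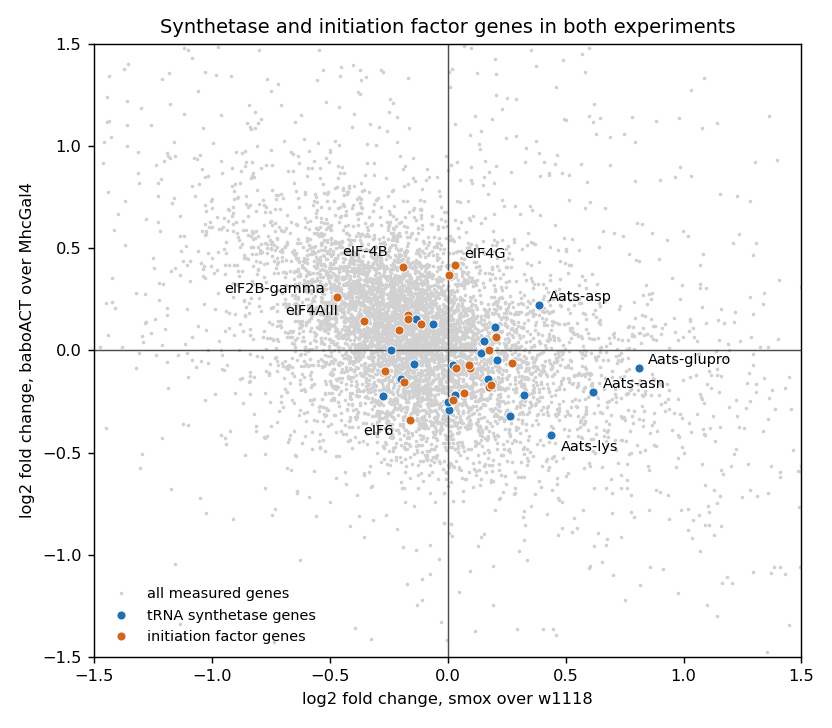
Log2 fold change with activated Baboon (vertical) against log2 fold change in smox (horizontal) for synthetase genes (blue), initiation factor genes (orange) and all 7512 genes measured in both experiments (gray); 480 genes lie outside the plotted range and are not shown. Aats-asn and Aats-lys lie at the lower right, Aats-asp at the upper right, and eIF2B-gamma and eIF-4B at the upper left.

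Of the 5 paralogs of the cap-binding protein gene eIF-4E whose names begin with eIF4E, 4 are listed at or near 0. eIF4E-4 and eIF4E-7 are listed at 0 in all 4 groups. eIF4E-5 is listed at 0.0314 FPKM in smox and 0 in w1118, and at 0 in baboACT and 0.0289 FPKM in MhcGal4. eIF4E-6 is listed at 0.309 FPKM in smox and 0.168 FPKM in w1118, and at 0.170 FPKM in baboACT and 0.159 FPKM in MhcGal4. These 4 genes were tested in neither experiment. The gene 4EHP, whose current symbol is eIF4EHP, shares its row with Syx1A. That row had 28.4 FPKM in smox and 29.5 FPKM in w1118, and 30.5 FPKM in baboACT and 27.6 FPKM in MhcGal4. It was called in neither experiment.

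eIF4E-3, a paralog known in Drosophila for its role in the male germ line, was listed at 2.96 FPKM in smox and 0.0359 FPKM in w1118. The ratio rests on a value near 0 in w1118, and the gene was not called (q = 0.230 by the authors' deposited table). In the other experiment it was listed at 0 in baboACT and 0.0982 FPKM in MhcGal4. The smox larvae were male by genotype, and the part of sex or of gonads left in the carcass was not tested.

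The second eIF4G gene shares its row with another gene, CG33111, and the 2 cannot be told apart. That row had 36.0 FPKM in smox and 38.5 FPKM in w1118 and was not called, and it had 47.8 FPKM in baboACT and 39.1 FPKM in MhcGal4, a log2 fold change of 0.29 (q = 0.0054 by the authors' deposited table).

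Synthetases that the tables list under other names were read next. They are 14 rows found through their RefSeq symbols, of which 13 were measured in smox and 14 with activated Baboon. In smox 3 rose and 1 fell, 23.1% and 7.69% beside 18.4% and 39.9% of all measured genes, the median log2 fold change being 0.07. With activated Baboon 0 rose and 1 fell, which is 7.14%, beside 29.2% and 14.7% of all measured genes, the median being -0.01. CG33123, the cytosolic leucyl enzyme LeuRS, had 20.0 FPKM in smox and 11.2 FPKM in w1118, a log2 fold change of 0.83, slightly above that of Aats-glupro. With activated Baboon it fell, to 27.4 FPKM in baboACT against 33.6 FPKM in MhcGal4 (-0.30). CG17259, the cytosolic SerRS, had 56.3 FPKM in smox and 47.6 FPKM in w1118 (0.24). CG16912, the mitochondrial TyrRS-m, had 8.88 FPKM in smox and 6.98 FPKM in w1118 (0.35), a rise in a mitochondrial enzyme, while CG8257, or CysRS-m, had 6.07 FPKM in smox and 7.99 FPKM in w1118 (-0.40). Both subunits of the cytosolic phenylalanyl enzyme, CG2263 and CG5706, were called in neither experiment.

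In animals several cytosolic synthetases are held in one multisynthetase complex: those for arginine, aspartate, glutamine, glutamate with proline, isoleucine, leucine, lysine and methionine. Their 8 genes were grouped after the values were seen, so the counts are given without weight. In smox 5 rose (Aats-glupro, CG33123, Aats-lys, Aats-asp and Aats-ile) and 1 fell (Aats-arg), the median log2 fold change being 0.36. With activated Baboon 1 rose (Aats-asp) and 4 fell (Aats-lys, CG33123, Aats-gln and Aats-ile), with a median of -0.15. In smox the shares were 62.5% higher and 12.5% lower, beside 18.4% and 39.9% of all measured genes. With activated Baboon they were 12.5% and 50%, beside 29.2% and 14.7%. CG15100, the cytosolic MetRS, stood at 12.1 FPKM in smox and 11.9 FPKM in w1118 and was called in neither experiment.

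Initiation factors under other names, mostly further eIF3 subunits, also gave calls in both directions. Of 14 measured genes 3 rose and 6 fell in smox, 21.4% and 42.9%, near the 18.4% and 39.9% of all measured genes. With activated Baboon 1 rose and 3 fell, 7.14% and 21.4%, beside 29.2% and 14.7% of all measured genes. The 14 include bel and Rm62, which were added by name and have no eIF symbol. The 1 rise with activated Baboon was in bel, which is also among the 6 falls in smox. In smox CG5642 (eIF3l) had 130 FPKM against 101 FPKM in w1118, a log2 fold change of 0.35, and CG10306 (eIF3k) rose by 0.17 on that scale. Of the same complex, 3 genes fell in smox. Adam (eIF3j) had 77.5 FPKM in smox and 89.1 FPKM in w1118 (-0.20), CG9769 (eIF3f1) had 169 FPKM in smox and 191 FPKM in w1118 (-0.18), and Int6, another eIF3 subunit gene, had 128 FPKM in smox and 146 FPKM in w1118 (-0.18). The called eIF3 subunits thus went both ways in smox. The DEAD-box helicase gene bel had 30.9 FPKM in smox and 43.1 FPKM in w1118 (-0.48). With activated Baboon bel rose, to 45.3 FPKM in baboACT against 33.4 FPKM in MhcGal4 (0.44), and CG7414 (eIF2A) fell, to 182 FPKM in baboACT against 258 FPKM in MhcGal4 (-0.50). The eIF3 subunit genes Tango7 (eIF3m) and CG9769 (eIF3f1) also fell with activated Baboon, by 0.32 and 0.28 on the log2 scale.

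Regulators of initiation included larger called changes than the factors themselves. Of 10 genes 4 rose and 3 fell in smox, 40% and 30% beside 18.4% and 39.9% of all measured genes. With activated Baboon 4 rose and 4 fell, 40% each, beside 29.2% and 14.7% of all measured genes. Thor, whose protein 4E-BP holds eIF4E away from eIF4G, had 1683 FPKM in smox and 681 FPKM in w1118, a log2 fold change of 1.31, in the larvae in which eIF-4E fell. With activated Baboon Thor had 1082 FPKM in baboACT and 1244 FPKM in MhcGal4 (-0.20, q = 0.0397 by the authors' deposited table). Lk6, which encodes the kinase of eIF4E, rose in smox, to 154 FPKM against 111 FPKM in w1118 (0.46), and fell in baboACT, to 265 FPKM against 417 FPKM in MhcGal4 (-0.65).

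NAT1, an eIF4G relative that does not bind eIF4E, moved the other way. It had 95.3 FPKM in smox and 118 FPKM in w1118, a log2 fold change of -0.31, and 155 FPKM in baboACT and 105 FPKM in MhcGal4 (0.57). Paip2, an inhibitor of poly(A)-binding protein, rose in both experiments, by log2 fold changes of 0.19 in smox and 0.52 with activated Baboon. Of the kinases that phosphorylate eIF2alpha, Gcn2 was called in neither experiment and PEK was not called in smox and rose with activated Baboon, at 11.4 FPKM in baboACT and 9.72 FPKM in MhcGal4 (0.23). The transcript of crc, the ATF4 factor whose translation increases when eIF2alpha is phosphorylated, had 612 FPKM in smox and 702 FPKM in w1118 (-0.20) and was not called with activated Baboon.

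Elongation, termination and tRNA-processing genes completed the translation lists. Of 10 elongation and termination genes 2 rose and 3 fell in smox and likewise with activated Baboon. Those shares of 20% and 30% stand beside 18.4% and 39.9% of all measured genes in smox and 29.2% and 14.7% with activated Baboon. Ef1beta, a nucleotide exchange subunit of elongation factor 1, had 621 FPKM in smox and 892 FPKM in w1118, a log2 fold change of -0.52. The release factor gene eRF1 had 105 FPKM in smox and 133 FPKM in w1118 (-0.34), and 157 FPKM in baboACT and 118 FPKM in MhcGal4 (0.42). pelo, a ribosome rescue factor, had 12.3 FPKM in smox and 15.3 FPKM in w1118 (-0.32). Ef1gamma fell with activated Baboon, to 1106 FPKM in baboACT against 1459 FPKM in MhcGal4 (-0.40), as did Ef2b, the translocase, to 1801 FPKM in baboACT against 2174 FPKM in MhcGal4 (-0.27). Of the tRNA-processing list 4 genes were found, and the other planned names were not. In smox 2 of the 4 rose and 0 fell, and with activated Baboon 0 rose and 1 fell. Those shares of 50% and 0%, and of 0% and 25%, stand beside the same shares of all measured genes. La is in both counts, with log2 fold changes of 0.14 in smox and -0.42 with activated Baboon.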

How the data were processed

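RNA from larval carcass was made into TruSeq libraries, 3 for each of 4 groups, per the labels' protocols. Cufflinks and Cuffdiff were used, per the submitters' processing notes, which give no version; no source used here gives the aligner, annotation, build, strand setting or scaling. Per the file headers, the authors deposited 1 FPKM per gene and group and a p-value with its q-value, in 1 table per experiment; 0 columns hold single libraries. The lowest p-value in both tables is 5e-05. Read depth is unknown, so no interval or floor is given.

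Log2 ratios were computed from FPKM without a pseudocount, with Python 3.11.15, pandas 2.3.3 and NumPy 2.4.6, and the functions were tested on simulated data. No test between libraries could be run on group values, so the limma test of the design was replaced by the authors' q, as foreseen there. Calls use the deposited q under 0.05. Rows naming several genes and rows under a mean of 1 FPKM were left out of counts. Gene names were matched to RefSeq (Release 6): 48 of 49 names had 1 current symbol; eIF4G had several. Compartments follow those symbols, which replaced the planned rule by name after values were seen. The genes and lists were chosen with earlier results of these data known. Named genes are the 4 highest and 4 lowest called changes per class and experiment, the 2 most abundant per class, genes called in opposite directions, unmeasured rows, eIF2alpha, the eIF4E and eIF4G paralogs, a gene near each subgroup median and, of other translation lists, the largest called changes; others are named to complete a group. Alternatives were stricter q, a fold minimum (one group at least 25% above the other), other FPKM minimums, rows of several names, a pseudocount of 1, median centring and quantile normalization. Sequences and promoter motifs were not analysed here. Coordinates are those of the tables, with 1 added to each start.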

Additional observations from a re-analysis of the deposited data

How the results depend on the processing

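No paired analysis was possible because the tables hold 1 value per group, and for the same reason no library could be left out. With q under 0.01, counts in smox became 0 lower synthetases and 2 higher initiation factors, and in baboACT 0 higher and 3 lower synthetases and 0 lower initiation factors. With one group required to stand at least 25% above the other, 5 synthetases were higher and 0 lower in smox, with 0 initiation factors higher and 2 lower; in baboACT 0 synthetases were higher and 1 lower, and 0 initiation factors lower. The other counts stayed within 1.5 times. The median log2 fold change of synthetases in smox was 0.13 with a pseudocount of 1, 0.16 at a mean of at least 5 FPKM, 0.29 with the median gene set to 0 and 0.26 after quantile normalization. That of initiation factors in smox was 0.020 with the pseudocount, 0.012 at 5 FPKM, 0.012 with rows of several names, 0.16 with the median gene set to 0 and 0.12 after quantile normalization. In baboACT synthetases gave -0.083, -0.080, -0.17 and -0.29 with the pseudocount, at 5 FPKM, with the median gene set to 0 and after quantile normalization. Initiation factors in baboACT gave -0.027 with the pseudocount, -0.11 with the median gene set to 0 and -0.15 after quantile normalization, and turned to 0.0039 with rows of several names, by adding 1 row. Of called genes named by the rule, Aats-arg in smox turned, to 0.0074 with the median gene set to 0. Of uncalled ones in baboACT, Aats-arg turned to -0.035, eIF4AIII to -0.063, eIF-3p66 to -0.11 and eIF3-S10 to -0.20 after quantile normalization. With the median gene set to 0, eIF-3p66 turned to -0.018 and eIF3-S10 to -0.078 in baboACT. The uncalled row CG33111,eIF4G2 in smox turned to 0.050 with the median gene set to 0 and to 0.017 after quantile normalization. The mitochondrial synthetase median turned to 0.045 in smox with the median gene set to 0 and to 0.026 after quantile normalization, and, when the compartment was read from table names, which leaves 1 gene, to 0.0026 in baboACT, against -0.24 in smox. The median of all genes in baboACT turned to -0.042 after quantile normalization. Depth is unknown, so which change could be called among mitochondrial synthetases and eIF4E paralogs was not tested.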
